A study of Mus musculus with 24 samples.

Results

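The 38 genes described here act in DNA replication and in the passage of the cell cycle from G1 into S phase. They were taken by gene symbol from a table of exon read counts for 24506 genes in mouse pro-B cells, by a rule that names symbols and uses no measured value, though the list was drawn up with earlier results of these data known. By role they fall into 10 genes of origin licensing, 6 of helicase activation, 7 of DNA polymerases and primase, 7 of the sliding clamp, clamp loading and ligation, 3 of replication-coupled chromatin and 5 of G1/S control. All 38 were in the table and all 38 had enough reads to be tested; the lowest count of any of them in any library was 84 reads, for Dscc1.

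The study asked how the transcription factors EBF1 and PAX5 act on the expansion of pro-B cells through the Myc gene. Pro-B cells came from fetal liver on the C57BL6/J background, were wild type, Ebf1-KO or Pax5-KO, and were grown on the stromal line OP9 with KIT ligand, Fms-like tyrosine kinase 3 ligand and Interleukin-7. Every culture carried the retroviral vector pMiG: empty in wild type, and empty or expressing Ebf1 or Pax5 in each of the Ebf1-KO and Pax5-KO genotypes. This gave 7 groups of 2 RNA libraries, named below wild type, Ebf1-KO, Ebf1-KO with Ebf1, Ebf1-KO with Pax5, Pax5-KO, Pax5-KO with Ebf1 and Pax5-KO with Pax5. The labels give neither the age of the fetuses nor whether transduced cells were sorted, and they do not say that the 2 libraries of a group came from separate cultures. The p-values therefore reflect the scatter between libraries of the same group, pooled over the groups, and that scatter may be of technical origin only.

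Replication begins when the origin recognition complex, CDC6 and CDT1 load the MCM helicase onto origins in G1. Cyclin E with CDK2, activated by the phosphatase CDC25A, then fires the origins: CDC45, the GINS complex and MCM10 turn MCM into an active helicase, and polymerases alpha, delta and epsilon copy the strands with the clamp PCNA. Many of these genes are classic targets of E2F transcription factors, which are held back by the RB proteins until late G1. In B-cell progenitors this machinery serves the proliferation driven by Interleukin-7 and the pre-B cell receptor.

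The starts of some of these genes are shown first, for a promoter feature found in 15 of the 30 genes with a matched window. The choice by symbol read no sequence, though many of these genes are classic E2F targets. RefSeq promoter windows of 300 bases on GRCm38.p6 could be matched for 30 of the 38 genes. The E2F words TTTCCCGC, TTTGGCGC, TTTCGCGC and TTTGCCGC were searched on both strands, overlaps allowed. At least 1 of them stood in 15 of the 30 windows (50.0%), against 2.91% of all 17548 windows and 4.02% of the 10945 windows of genes tested for expression. The stretches below run from 120 bases before the start to the base before it, on the gene's own strand, with E2F words in capitals. They are shown for 3 genes that hold a word there and for E2f2 and Uhrf1, which do not and whose RNA varied most between the groups.
Orc1, chr4:108579334-108579453, plus strand: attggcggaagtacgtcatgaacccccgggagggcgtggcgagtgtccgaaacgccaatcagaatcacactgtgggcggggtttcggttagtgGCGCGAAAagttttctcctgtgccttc
Mcm6, chr1:128359706-128359825, minus strand: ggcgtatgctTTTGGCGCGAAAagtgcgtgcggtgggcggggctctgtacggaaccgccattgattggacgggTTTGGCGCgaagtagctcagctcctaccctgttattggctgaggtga
Cdc25a, chr9:109875459-109875578, plus strand: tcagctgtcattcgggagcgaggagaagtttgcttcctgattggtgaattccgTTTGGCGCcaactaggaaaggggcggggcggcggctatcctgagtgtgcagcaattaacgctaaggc
E2f2, chr4:136172154-136172273, plus strand: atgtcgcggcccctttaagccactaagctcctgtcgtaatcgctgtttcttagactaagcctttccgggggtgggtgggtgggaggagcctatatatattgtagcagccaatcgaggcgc
Uhrf1, chr17:56303217-56303336, plus strand: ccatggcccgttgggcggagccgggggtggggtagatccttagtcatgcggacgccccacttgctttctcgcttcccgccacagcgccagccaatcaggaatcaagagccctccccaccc

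The Mcm6 stretch holds 3 matches, and the upstream pair overlaps on opposite strands in a single run of capitals. In E2f2 the only match of its window lies 39 bases downstream of the start, outside the stretch shown. The CCAAT word, bound by NF-Y, was present in 18 of the 30 windows (60.0%) against 38.9% of all windows, and in the windows of all 5 genes shown. The E-box CACGTG, the word bound by MYC with MAX, was present in 2 of the 30 (6.67%) against 8.14% of all windows. The EBF1 word, TCCC and GGGA with 2 bases of any kind between them, stood in the windows of Pola1 and Chaf1a, 6.67% of the 30 against 0.969% of all, and the cell-cycle word TTTGAA in 4 (13.3%) against 15.6% of all windows. Among windows of genes tested for expression the shares were 38.5% for CCAAT, 9.78% for the E-box and 1.02% for the EBF1 word, and TTTGAA stood in 1311 of 10945, a lower share than among the 30. These are matches of letters, and none of them was measured as a bound site.

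Levels are given in CPM, read counts scaled to a common library size after adjustment for library composition, for replicate 1 and then replicate 2. Exon counts summed to between 16118136 and 42076718 reads per library. Each targeted gene was low in both knockouts, and the level of Ebf1 did not tell them apart. The wild-type libraries held 966 and 1102 CPM of Ebf1, the Ebf1-KO libraries 244 and 282 and the Pax5-KO libraries 315 and 241. Pax5 stood at 412 and 333 CPM in wild type, at 20.1 and 12.3 in Pax5-KO and lower still, at 2.24 and 2.49, where Ebf1 was deleted. These counts cover all exons, so the remaining reads do not check the deletion. With the matching vector Ebf1 reached 857 and 893 CPM in Ebf1-KO cells and Pax5 reached 746 and 440 CPM in Pax5-KO cells. With the other vector Pax5 reached 429 and 399 CPM in Ebf1-KO cells and Ebf1 reached 1644 and 1483 CPM in Pax5-KO cells. Under the Pax5 vector Ebf1 itself stood at 252 and 256 CPM in Ebf1-KO cells and at 488 and 589 in Pax5-KO cells. The part of these levels in the vector effects was not tested. The labelled pro-B identity was checked with marker genes: Cd79a, a chain of the B-cell receptor complex, stood at 611 and 427 CPM in wild type but at 0.549 and 0.518 in Ebf1-KO, where Vpreb2 and Vpreb3 of the surrogate light chain had no read. Wild-type libraries summed 8101 to 8729 CPM over 16 early B markers, those of Ebf1-KO 916 to 932 and those of Pax5-KO 1908 to 1967. Within this list Ptprc was higher in both knockouts, at 578 and 565 CPM without Ebf1, 501 and 458 without Pax5. Its wild-type level was 264 and 297 CPM. Il7r was lower without Ebf1, at 210 and 221 CPM beside 290 and 306 for wild type. Without Pax5 it stood at 311 and 337 CPM. Ptprc and Il7r made up most of the Ebf1-KO sum and a large part of the Pax5-KO sum. Over 16 myeloid markers the same groups summed 83.2 to 122, 852 to 899 and 638 to 803 CPM, and over 14 natural killer and innate lymphoid markers 4.30 to 6.35, 262 to 292 and 427 to 465 CPM. The 14 T cell markers summed 222 to 256, 767 to 923 and 1325 to 1358 CPM, and the 11 erythroid markers 559 to 596, 863 to 1165 and 842 to 886 CPM. The part of these other programmes in the results below was not tested. In bulk RNA of this kind fewer cells of a type and less RNA per cell cannot be told apart.

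Over all 14 libraries the genes of the table differed widely in level, which is compared between genes per kilobase of exon. In licensing, Mcm6, a subunit of the helicase ring, had the highest level at 102 CPM per kb, and Orc1, the largest subunit of the origin recognition complex, the lowest at 10.9. Helicase activation ranged from Gins3 at 5.98 to Gins2 at 64.4 CPM per kb, both GINS subunits. Among polymerases and primase, Pola2, the regulatory subunit of polymerase alpha, stood at 47.6 and Pole2, an accessory subunit of polymerase epsilon, at 19.0 CPM per kb. Pcna was the most abundant of all 38 at 163 CPM per kb, while Dscc1, a part of an alternative clamp loader, stood at 7.98. Uhrf1, which brings maintenance DNA methylation to replicated DNA, stood at 150 CPM per kb, and Chaf1b, a subunit of the histone-depositing CAF-1 complex, at 22.5. In G1/S control the range ran from Ccne1, which encodes cyclin E1, at 9.54 to E2f2, an activating E2F, at 62.4 CPM per kb.

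**Figure D1:**
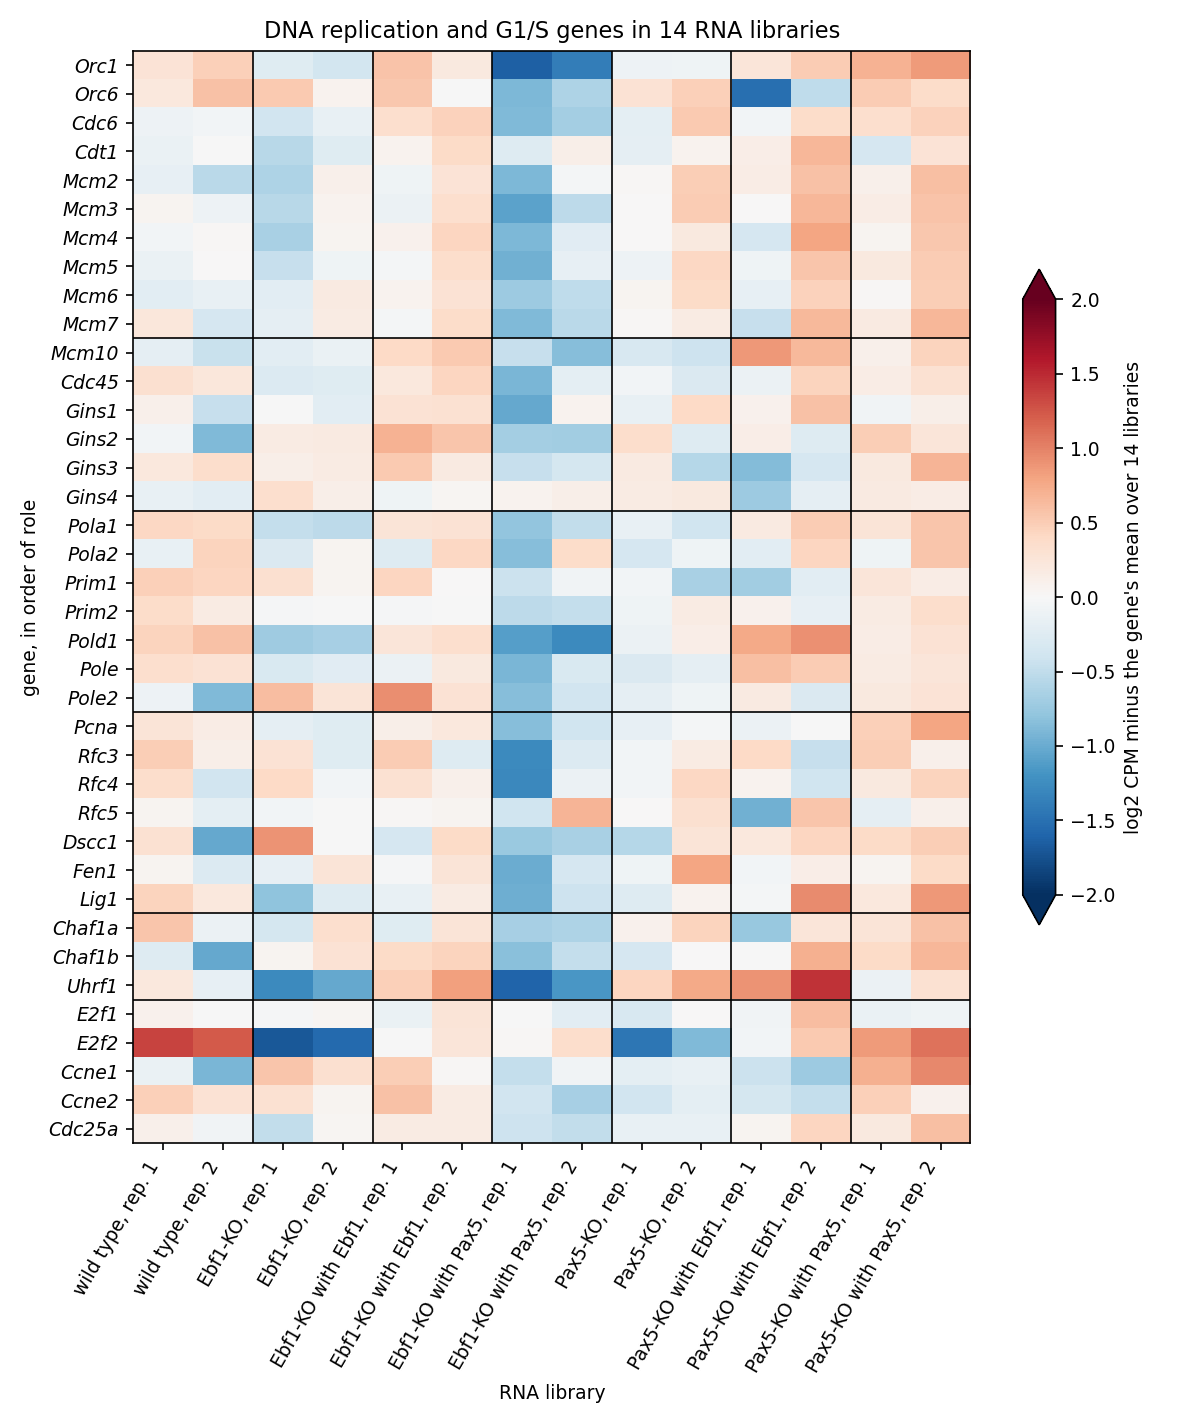
The 38 genes (rows, in order of role) in each of the 14 RNA libraries (columns); colour gives log2 CPM minus the gene's mean over the 14 libraries. Replicate 1 of Ebf1-KO with Pax5 is blue in most rows, and E2f2 and Uhrf1 show the strongest contrasts between groups.

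Across the groups, Ebf1-KO with Pax5 stood lowest. It held the lowest group mean of 28 of the 38 genes, as the map of all genes by library shows. Summed over the 38 genes, the libraries of Ebf1-KO with Pax5 held 2518 and 3432 CPM, those of Ebf1-KO with the empty vector 3258 and 3958, and those with Ebf1 4775 and 5605, beside 5082 and 4622 for wild type. In the Pax5-KO genotype the sums were 4200 and 5103 CPM with the empty vector, 4704 and 6772 with Ebf1 and 4990 and 6337 with Pax5. Pax5-KO with Pax5 held the highest group mean of 17 genes, Pax5-KO with Ebf1 that of 9 and wild type that of 5. Within groups the replicates differed in a common direction: replicate 2 had the higher sum in all 6 groups of the mutant genotypes and the lower sum in wild type. The share of each library's header total that fell in exons moved with this, since in 7 of 7 groups the replicate with the larger exon share also had the larger sum. That share was 36.7% and 28.5% in wild type and between 32.4% and 65.4% in the other libraries. Its part in the results was not tested. Column names carry a numeric tag that is shared by all replicates 1 and by all replicates 2, so comparisons are also given within each replicate number.

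Changes were tested with edgeR's quasi-likelihood test over 14550 genes, with Benjamini-Hochberg adjustment over all of them (edgeR adjusted p below), and a gene was called at an adjusted p under 0.05. Over 10 comparisons, 13 of the 38 genes were called at least once and 25 never; of all genes tested, 27.0% were called at least once. The comparisons of Ebf1-KO and of Pax5-KO with wild type share the wild-type libraries, and the comparisons of the Ebf1 and the Pax5 vector within a genotype share the empty-vector libraries. Reads may be shared where genes overlap, since strand use is not known: Pold1 overlaps Mir7053, Mcm7 overlaps Mir106b, Mir25 and Mir93, Cdc25a overlaps Mir7089, and Rfc4 and Ccne2 overlap Eif4a2 and Ints8 on the opposite strand.

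Loss of Ebf1 went with lower RNA of 4 of the 38 genes against wild type and higher RNA of none: E2f2, Pold1, Uhrf1 and Pola1. Of all genes tested, 6.65% were called lower and 8.02% higher in this comparison. Wild-type E2f2 stood at 626 and 573 CPM and fell to 76.1 and 83.3 without Ebf1, a log2 fold change of -2.91 (SE 0.25, edgeR adjusted p = 1.43e-06). The wild-type libraries were far above both mutant libraries. Pold1, the catalytic subunit of polymerase delta, fell from 117 and 128 CPM to 52.4 and 54.1, a log2 fold change of -1.20 (SE 0.20, edgeR adjusted p = 0.000556). Uhrf1 fell from 518 and 399 CPM to 185 and 221, a log2 fold change of -1.18 (SE 0.25, edgeR adjusted p = 0.00491). Pola1, the catalytic subunit of polymerase alpha, fell from 171 and 167 CPM to 92.3 and 89.5, a log2 fold change of -0.89 (SE 0.20, edgeR adjusted p = 0.00669). In these 4 genes the groups did not overlap.

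No call was made for the remaining genes. The median log2 fold change of the 38 was -0.20, with 24 genes below 0, beside a median of 0.03 over all genes tested. Lower without overlap were 14 genes (all genes tested, 27.2%) and higher without overlap 5 (all genes tested, 32.3%). By role, 6 of 7 polymerase and primase genes lay below 0, with a median of -0.29, while the helicase activation genes had a median of 0.09. The largest log2 fold change was that of Ccne1, at 0.90 (SE 0.38, edgeR adjusted p = 0.137), with 25.3 and 21.6 CPM against 15.8 and 9.2 in wild type. The medians within replicate 1 and within replicate 2 were -0.25 and -0.03. Leaving out either Ebf1-KO library ended the call of Pola1, and leaving out wild type replicate 1 or Ebf1-KO replicate 1 ended that of Uhrf1.

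Loss of Pax5 went with lower RNA of 2 genes, E2f2 and Pola1, and higher RNA of none; 5.00% of all genes tested were called lower and 8.65% higher. E2f2 stood at 90.1 and 134 CPM in Pax5-KO, both far below wild type, a log2 fold change of -2.42 (SE 0.25, edgeR adjusted p = 8.54e-06). Pola1 stood at 115 and 97.7 CPM in Pax5-KO, a log2 fold change of -0.66 (SE 0.20, edgeR adjusted p = 0.0392). Uhrf1, at 605 and 756 CPM in Pax5-KO, had a log2 fold change of 0.57 (SE 0.25, edgeR adjusted p = 0.159). Mcm2, another helicase subunit, had the largest value, 0.62 (edgeR adjusted p = 0.229). The median over the 38 genes was 0.02, with 18 genes below 0, beside 0.04 over all genes tested, and 4 genes were higher and 12 lower without overlap (all genes tested, 31.1% and 26.5%). The call of Pola1 was lost when any 1 of the 4 libraries was left out, when libraries were scaled by their totals alone and without the filter on low counts.

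Other genes of the same pathways were examined as lists. Of 44 other replication genes, 2 were called lower and 0 higher in Ebf1-KO against wild type, Ticrr, which loads CDC45, at -1.05 and the histone chaperone gene Asf1b at -1.19 on the log2 scale. In Pax5-KO the 2 called lower were Ticrr at -0.94 and Atad5, which unloads the clamp, at -0.73. Among 22 genes of the E2F and RB family and their partners, 7 were called lower and 0 higher in Ebf1-KO and 4 lower and 0 higher in Pax5-KO. The repressor-type E2F gene E2f7 had log2 fold changes of -2.04 in Ebf1-KO and -1.57 in Pax5-KO. Rb1, the retinoblastoma gene, had -1.30 and -1.37, and Mybl2, an activator of late cell-cycle genes, -0.91 and -1.06; Tfdp2, an E2F dimer partner, was also called lower in both. E2f8, Rbl1 and Fbxo5 were called lower in Ebf1-KO and not in Pax5-KO, the first at -1.01 and the second at -1.13, and whether they differed between the genotypes was not tested. Counts are not known to use strand, so Ticrr can share reads with Kif7, Rb1 with Lpar6 and Mybl2 with Mir7003, which overlap them. Of 20 mitosis genes, 5 were called lower in Ebf1-KO and 6 in Pax5-KO, with medians of -0.49 and -0.33; Mki67, a proliferation marker in that list, stood at 4432 and 4022 CPM for wild type and was called lower in both mutants, at 1235 and 1424 without Ebf1 and 1761 and 1470 without Pax5.

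**Figure D2:**
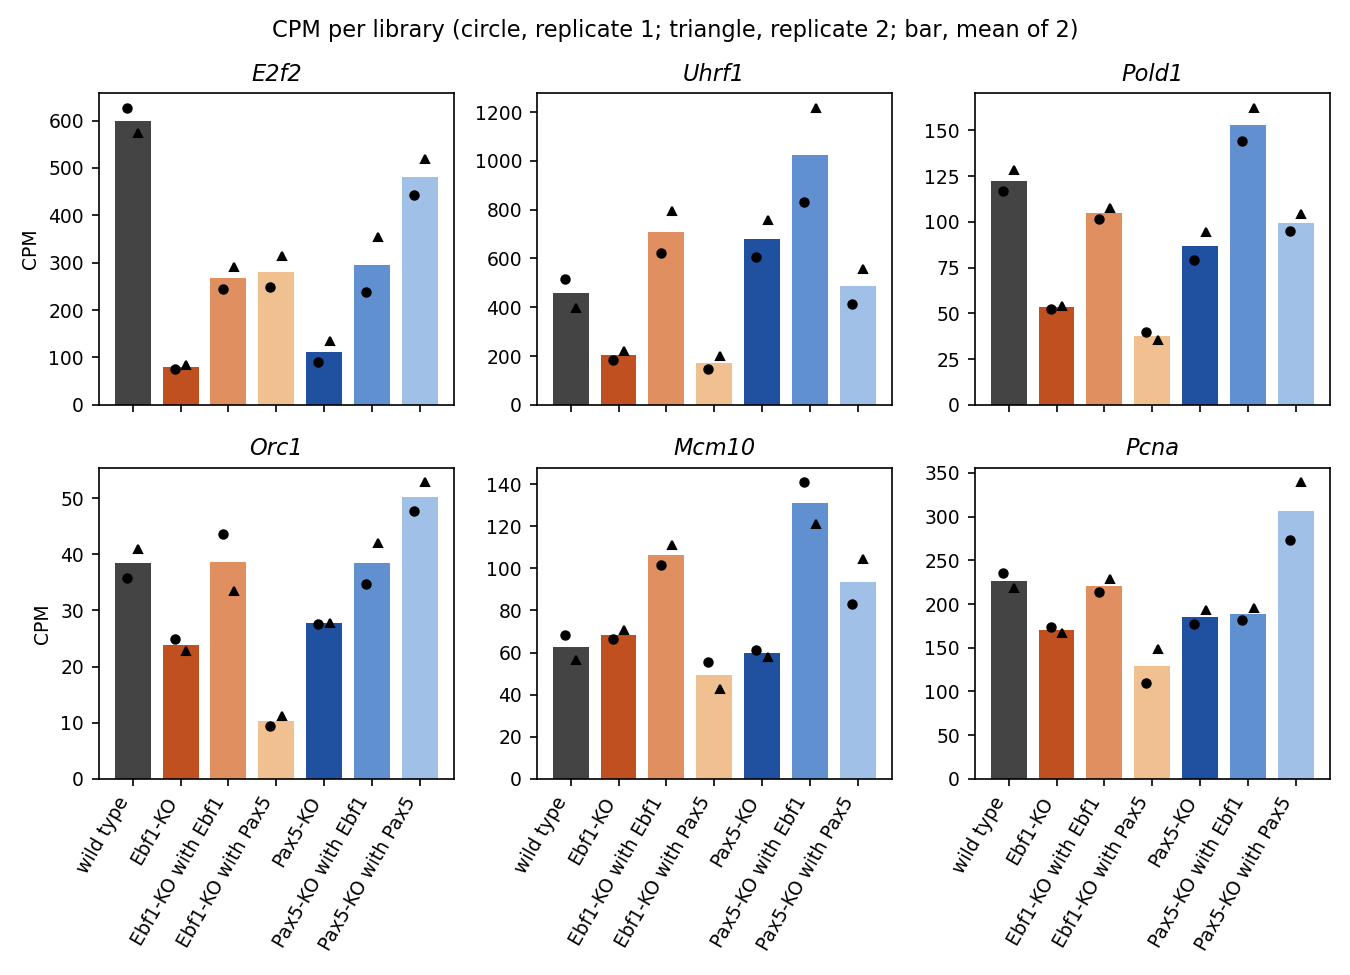
CPM of 6 genes in the 7 groups; circles are replicate 1, triangles replicate 2 and bars the mean of the 2 libraries. E2f2 is lowest in Ebf1-KO and Pax5-KO with the empty vector and higher with either vector, whereas Orc1 is lowest in Ebf1-KO with Pax5, at 9.44 and 11.2 CPM.

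The Ebf1 vector in Ebf1-KO cells raised 3 of the 38 genes, Uhrf1, E2f2 and Pold1, and lowered none; 2.21% of all genes tested were called higher and 0.763% lower. Uhrf1 stood at 621 and 793 CPM against 185 and 221 with the empty vector, a log2 fold change of 1.80 (SE 0.26, edgeR adjusted p = 0.000744). E2f2 rose to 245 and 291 CPM, a log2 fold change of 1.75 (SE 0.24, edgeR adjusted p = 0.000599), and remained below both wild-type libraries. Pold1 rose from 52.4 and 54.1 to 101 and 108 CPM, a log2 fold change of 0.97 (SE 0.20, edgeR adjusted p = 0.0105). The groups did not overlap in any of the 3. The median over the 38 genes was 0.28, with 33 genes above 0, beside 0.00 over all genes tested. Higher without overlap were 20 genes (all genes tested, 24.0%) and lower without overlap 1, the GINS subunit gene Gins4, named for that reason after its values were seen (all genes tested, 23.6%). Within replicate 1 the median was 0.30 and within replicate 2 it was 0.24. Dscc1 had the lowest value, at -0.44 (edgeR adjusted p = 0.960), with replicates of opposite sign. In the same comparison 20 of 20 mitosis genes lay above 0, with a median of 0.39 and 1 call, and 32 of 44 other replication genes lay above 0, with a median of 0.20 and 0 calls. Markers of other lineages moved as well. The myeloid sum was 469 to 478 CPM with Ebf1 against 852 to 899. Within the myeloid list Csf1r and Cebpb went the other way, as did Ctsg and Csf3r at low levels. Csf1r stood at 22.5 and 16.4 CPM with Ebf1 against 13.3 and 15.2, and Cebpb at 7.90 and 7.90 against 2.20 and 3.14. The natural killer and innate lymphoid sum was 119 to 138 against 262 to 292, while the T cell sum overlapped. Within the natural killer list Gzma went the other way, at 69.6 and 41.3 CPM with Ebf1 against 2.01 and 0.311. The part of these markers was not tested. The call of Pold1 ended when any 1 of the 4 libraries was left out and under scaling by library totals, which left 27 of the 38 genes above 0.

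The Pax5 vector in Ebf1-KO cells went with values below 0 for most of the genes, while E2f2 rose. E2f2 rose from 76.1 and 83.3 to 249 and 313 CPM, a log2 fold change of 1.82 (SE 0.24, edgeR adjusted p = 0.000536), and was the only gene of the 38 called higher (all genes tested, 3.15%). Orc1 was the only one called lower (all genes tested, 0.935%): it fell from 24.9 and 22.8 to 9.44 and 11.2 CPM, a log2 fold change of -1.20 (SE 0.28, edgeR adjusted p = 0.0260). Both Pax5 libraries lay below both empty-vector libraries for Orc1, the lowest values of this gene in any group.

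None of the other genes was called. In all, 35 of the 38 genes lay below 0, with a median of -0.48, while 7348 of 14550 genes tested lay below 0, with a median of -0.01. Lower without overlap were 22 genes (all genes tested, 25.4%) and higher without overlap 1, E2f2 (all genes tested, 24.2%). In licensing, 9 of 10 lay below 0, among them Orc6 at -1.07 and Mcm7 at -0.69, and Cdt1 was the exception at 0.34. All 6 helicase activation genes and all 7 polymerase and primase genes lay below 0, with medians of -0.38 and -0.44, led by Gins2 at -0.86 and Pole2 at -1.04. In the clamp and ligation set the median was -0.68, and Dscc1 had -1.20 (SE 0.55, edgeR adjusted p = 0.281), while Rfc5, a clamp loader subunit, lay at 0.27. Chaf1b had -0.82, and the cyclin E genes Ccne1 and Ccne2 had -0.69 and -0.71. The medians within replicate 1 and replicate 2 were -0.54 and -0.33, and 29 genes lay below 0 in both (all genes tested, 35.0%).

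Several other measures stood beside this. The exon share of the header total was 36.9% and 54.9% in Ebf1-KO with Pax5 and 32.7% and 51.0% in Ebf1-KO. Myc, the gene named in the study's title, stood at 66.8 and 84.3 CPM with Pax5 against 143 and 187 with the empty vector. The mitosis list did not share the direction of the 38 genes: 14 of 20 lay above 0, with a median of 0.12 and 0 calls. Of the 44 other replication genes 36 lay below 0, with a median of -0.32 and 0 calls; of the 22 E2F and RB family genes 9 lay below 0, with a median of 0.13 and 0 calls. Summed markers of natural killer and innate lymphoid cells were 435 to 469 CPM with Pax5 and 262 to 292 with the empty vector, and OP9-type stroma markers were 81.3 to 92.0 and 65.5 to 72.8, with Col3a1, Lum, Dcn and Postn at 0 in both groups. Within the stroma list Sparc stood at 37.8 and 58.4 CPM with Pax5 against 4.30 and 7.98, and Pdgfrb at 36.1 and 28.2 against 58.1 and 63.3, so the 2 main contributors went opposite ways. The summed myeloid markers overlapped, at 838 to 853 and 852 to 899 CPM. Their part in the lower level of the replication genes was not tested. The call of Orc1 ended when any 1 of the 4 libraries was left out, under scaling by library totals and when the 4 libraries were fitted alone, and its adjusted p-values over all alternatives, of edgeR or DESeq2, ran from 0.000149 to 0.210. Under each of the last 2 settings the calls were 1 higher and 0 lower.

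**Figure D3:**
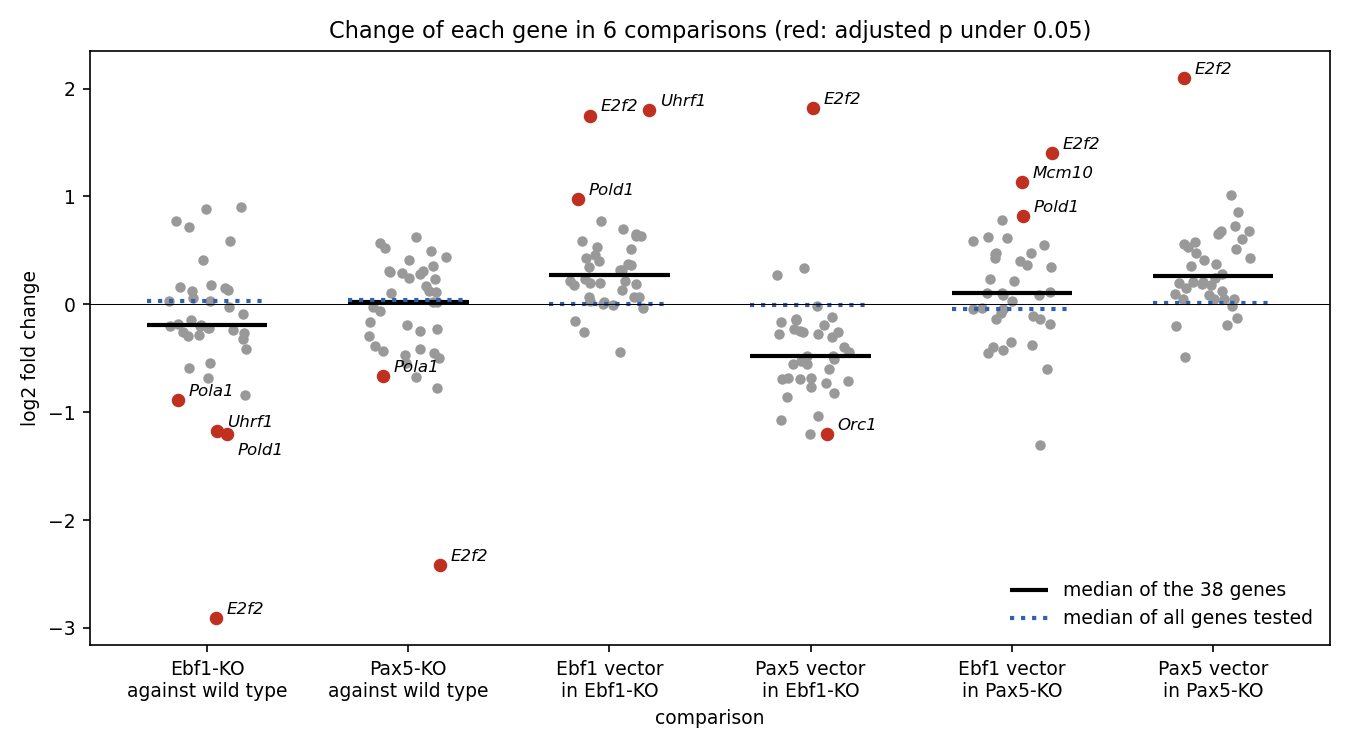
Log2 fold change of each of the 38 genes in 6 comparisons (vertical axis; 1 point per gene, spread sideways at random); red points have an edgeR adjusted p under 0.05. Solid bars are the median of the 38 genes and dotted bars that of all genes tested; the 38 genes have a median of 0.28 for the Ebf1 vector and -0.48 for the Pax5 vector in Ebf1-KO cells.

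Compared directly in Ebf1-KO cells, the Ebf1 and Pax5 vectors differed in 10 of the 38 genes. All 10 were higher with Ebf1, where 4.74% of all genes tested were called higher and 5.46% lower. In licensing these were Orc1, Cdc6 and Mcm6. Orc1 stood at 43.7 and 33.5 CPM with Ebf1 against 9.44 and 11.2 with Pax5, a log2 fold change of 1.90 (SE 0.29, edgeR adjusted p = 0.000563). Cdc6, a helicase loader, stood at 112 and 122 CPM against 48.0 and 55.2, a log2 fold change of 1.18 (SE 0.25, edgeR adjusted p = 0.00642). Mcm6 stood at 463 and 536 CPM against 267 and 309, a log2 fold change of 0.80 (SE 0.24, edgeR adjusted p = 0.0492). The groups were apart in all 3 of these genes.

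Helicase activation gave Mcm10, which helps to start the loaded helicase, and Gins2. Mcm10 stood at 102 and 111 CPM with Ebf1 and at 55.7 and 42.8 with Pax5, a log2 fold change of 1.11 (edgeR adjusted p = 0.00472). Gins2 stood at 103 and 92.8 CPM with Ebf1 and at 39.2 in both Pax5 libraries, a log2 fold change of 1.32 (edgeR adjusted p = 0.00896). Gins2 overlaps Gse1 on the opposite strand and can share its reads. Of the polymerases, Pold1 had a log2 fold change of 1.48 (edgeR adjusted p = 0.000221), with 101 and 108 CPM against 39.8 and 35.4. Pola1 had 0.91 (edgeR adjusted p = 0.00895), with 153 and 157 CPM against 73.9 and 91.0. Pole2 had 1.24 (edgeR adjusted p = 0.0358), with 57.2 and 36.7 CPM against 16.7 and 23.1, the widest spread of the 3. Pcna stood at 214 and 228 CPM against 110 and 149, a log2 fold change of 0.77 (edgeR adjusted p = 0.0201). Uhrf1 had the largest difference, at 621 and 793 CPM against 148 and 199, a log2 fold change of 2.03 (SE 0.26, edgeR adjusted p = 0.000144). E2f2 had -0.07, with 245 and 291 CPM against 249 and 313, values that overlap.

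The median over the 38 genes was 0.77, with 35 genes above 0, beside 0.02 over all genes tested. Higher without overlap were 31 genes (all genes tested, 29.6%) and lower without overlap 1, Gins4 (all genes tested, 26.4%), and the medians within replicates 1 and 2 were 0.96 and 0.61. Rfc5 had the lowest value, -0.20. Among the 44 other replication genes 7 were called higher and 0 lower: Orc2, Mcm8, Recql4, Wdhd1, Rpa2, Tipin and Nasp, named as called after their values were seen. Of the 20 mitosis genes 19 lay above 0, with a median of 0.34 and 1 call. Under scaling by library totals the calls of Mcm6, Pole2 and Pcna ended, and that of Mcm6 also ended with DESeq2 size factors. Orc1, Pold1 and Uhrf1 were called under every alternative tried, whereas each of the other 7 calls ended when at least 2 of the 4 libraries were left out in turn.

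In Pax5-KO cells the Ebf1 vector raised 3 genes and lowered none, where 1.75% of all genes tested were called higher and 1.85% lower. E2f2 rose from 90.1 and 134 to 238 and 354 CPM, a log2 fold change of 1.40 (SE 0.24, edgeR adjusted p = 0.00542). Mcm10 rose from 61.4 and 58.1 to 141 and 121 CPM, a log2 fold change of 1.13 (SE 0.22, edgeR adjusted p = 0.0121). Pold1 rose from 79.0 and 94.3 to 144 and 162 CPM, a log2 fold change of 0.82 (SE 0.19, edgeR adjusted p = 0.0316). The groups were apart in all 3. Orc6, a small subunit of the origin recognition complex, had the lowest value at -1.30 (SE 0.35, edgeR adjusted p = 0.0575), with 37.6 and 42.9 CPM against 10.9 and 21.6. Over the 38 genes the median was 0.10, with 23 above 0, beside -0.04 over all genes tested; under scaling by library totals it was -0.047, with 21 below 0. Higher without overlap were 9 genes (all genes tested, 17.7%) and lower 3 (all genes tested, 24.4%). Scaling by library totals also ended the call of Pold1.

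The pathway lists added few calls to this comparison. Of the 44 other replication genes 1 was called, Mcm9, at 1.93 on the log2 scale, with 82.7 and 25.8 CPM against 18.9 and 9.68. Mcm9 overlaps Asf1a and can share its reads. In the E2F and RB family Mybl2 rose by 1.66 and Tfdp2 by 1.08 on the log2 scale. With Ebf1 the myeloid sum was 421 to 510 CPM against 638 to 803, and the T cell sum 773 to 956 against 1325 to 1358. The natural killer and innate lymphoid sum was 241 to 386 CPM against 427 to 465. Within that last list Gzma went the other way, at 256 and 127 CPM against 10.6 and 6.46. The part of these markers was not tested. The libraries of Pax5-KO with Ebf1 were the least alike of any group (Pearson correlation of log2 CPM 0.895, against 0.934 to 0.971 in the others). When the 4 libraries of the comparison were fitted alone, 0 of the 38 genes were called, beside 53 of all genes tested called higher and 14 lower; leaving out Pax5-KO replicate 1 ended the calls of all 3 genes, and leaving out Pax5-KO replicate 2 those of Mcm10 and Pold1.

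The Pax5 vector in Pax5-KO cells raised E2f2 alone among the 38 and lowered none; 1.64% of all genes tested were called higher and 2.40% lower. E2f2 rose from 90.1 and 134 to 442 and 519 CPM, a log2 fold change of 2.10 (SE 0.25, edgeR adjusted p = 0.000127), the nearest of the vector groups to the wild-type level. Pcna stood at 274 and 339 CPM against 177 and 193, a log2 fold change of 0.73 (SE 0.20, edgeR adjusted p = 0.0517). Ccne1 stood at 28.3 and 33.8 CPM against 15.2 and 15.6, at 1.01 (edgeR adjusted p = 0.193), and Orc1 at 47.6 and 52.8 CPM against 27.5 and 27.8, at 0.86 (edgeR adjusted p = 0.119). Uhrf1 had the lowest value, -0.49, with 415 and 555 CPM against 605 and 756. The median over the 38 genes was 0.27, with 33 above 0, beside 0.01 over all genes tested, and 18 genes were higher and 1 lower without overlap (all genes tested, 23.5% and 23.7%). Under scaling by library totals the median was 0.16, with 27 genes above 0. With Pax5 the myeloid sum was 200 to 206 CPM against 638 to 803, the natural killer and innate lymphoid sum 137 to 138 against 427 to 465, and the T cell sum 294 to 328 against 1325 to 1358; their part was not tested. Mybl2 rose in the E2F and RB family, by 1.49 on the log2 scale. Of the mitosis genes 18 of 20 lay above 0, with a median of 0.56 and 1 call, and of the other replication genes 39 of 44, with a median of 0.36 and 0 calls.

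Set against the Pax5 vector in the same Pax5-KO cells, the Ebf1 vector left 1 gene higher, Uhrf1, and 3 lower, Orc6, Pcna and Ccne1, with 3.64% of all genes tested called higher and 3.18% lower. Uhrf1 stood at 833 and 1215 CPM with Ebf1, above both Pax5 libraries, a log2 fold change of 1.08 (edgeR adjusted p = 0.0193). Orc6 stood at 10.9 and 21.6 CPM with Ebf1 and at 43.8 and 39.8 with Pax5, a log2 fold change of -1.36 (edgeR adjusted p = 0.0344). Pcna stood at 182 and 196 CPM with Ebf1, a log2 fold change of -0.70 (edgeR adjusted p = 0.0456). Ccne1 stood at 12.9 and 10.5 CPM with Ebf1, a log2 fold change of -1.41 (edgeR adjusted p = 0.0395). The median over the 38 genes was -0.15, with 28 below 0, beside -0.03 over all genes tested. Lower without overlap were 14 genes (all genes tested, 26.1%) and higher 5 (all genes tested, 19.2%). With DESeq2 size factors the calls split into 2 higher and 2 lower, all 4 calls ended when the 4 libraries were fitted alone, and each was also lost when 1 of at least 3 libraries was left out.

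The Pax5 vector effect differed between the 2 genotypes for Orc1 and Pcna, by a test of the difference itself. Of all genes tested, 0.735% were called lower in Ebf1-KO than in Pax5-KO for this difference and 2.43% higher. For Orc1 the log2 fold change was -1.20 in Ebf1-KO and 0.86 in Pax5-KO, a difference of -2.06 (SE 0.39, edgeR adjusted p = 0.0104). For Pcna it was -0.40 and 0.73, a difference of -1.13 (SE 0.28, edgeR adjusted p = 0.0399). Both differences had the same sign in replicate 1 and in replicate 2. The call of Orc1 was lost in 4 of 14 alternatives, each leaving out 1 library, and that of Pcna in 9 of 14: under library totals, with the compared groups fitted alone and with any 1 of 7 libraries left out. Mcm10 and Chaf1b had differences of -1.13 and -1.51 (edgeR adjusted p = 0.0679 and 0.0964) and were not called. In all, 35 of the 38 differences were below 0, with a median of -0.77, beside 0.00 over all genes tested, and 32 were below 0 in both replicates (all genes tested, 35.0%). The log2 fold change with Pax5 was below 0 in Ebf1-KO and above 0 in Pax5-KO for 31 of the 38 genes; 4 were below 0 in both genotypes, 2, E2f2 and Cdt1, above 0 in both, and Rfc5 alone had the reverse order.

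**Figure D4:**
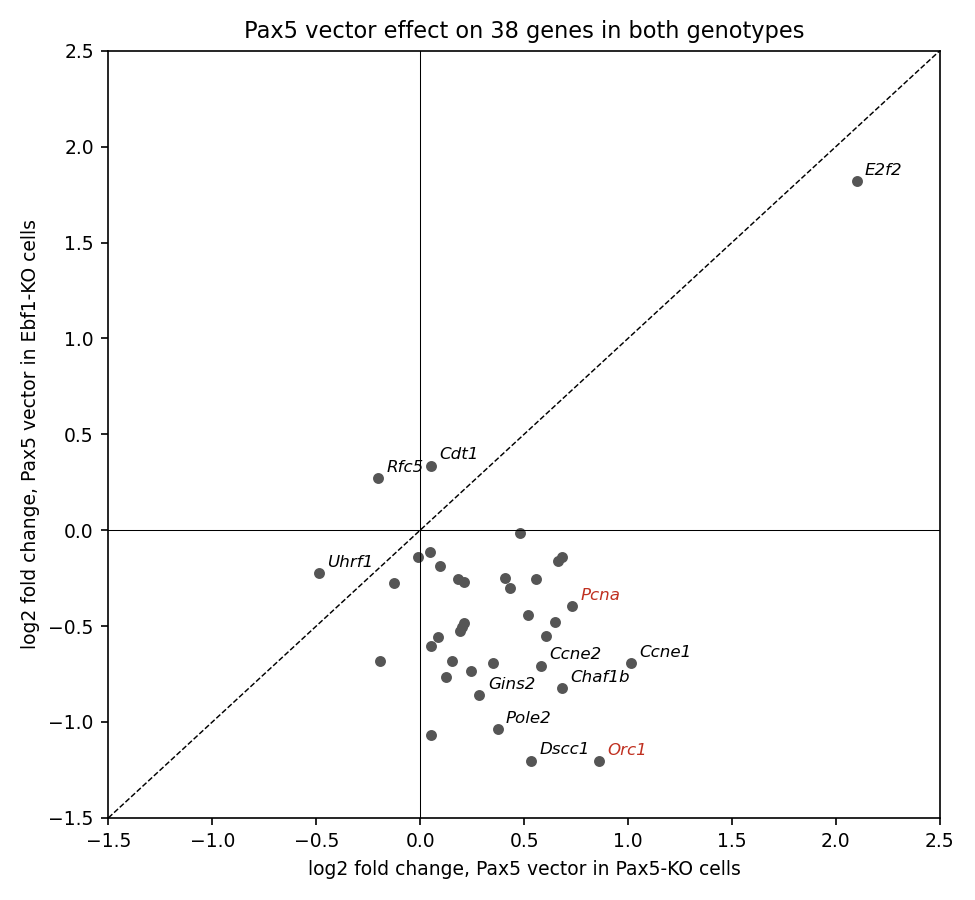
Log2 fold change with the Pax5 vector in Ebf1-KO cells (vertical axis) against that in Pax5-KO cells (horizontal axis), 1 point per gene; the dashed line marks equal effects. Of the 38 genes 35 lie below the line, E2f2 stands apart at the upper right, and the 2 genes whose difference was called, Orc1 and Pcna, are named in red.

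The same direction appeared in the list of other replication genes, of which 41 of 44 had a difference below 0, with a median of -0.74 and 0 calls. The 20 mitosis genes had a median of -0.39 with 1 call, and the 22 E2F and RB family genes a median of -0.23 with 1 call, Mybl2 at -2.12. Myc had a difference of -2.04. The Ebf1 vector effect gave no such call: 0 of the 38 differences between genotypes were called by edgeR and 0 by DESeq2, 2 had an unadjusted p under 0.05 (Uhrf1 at 1.21, edgeR adjusted p = 0.252, and Orc6 at 1.27, edgeR adjusted p = 0.493), and 0.577% of all genes tested were called higher and 0.0344% lower. The median of these differences was 0.22, with 30 above 0, beside 0.08 over all genes tested.

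E2f2 had the widest variation of the 38 genes, with a 7.52-fold range between group means. In order its means ± SD (n = 2) were 599 ± 37.5 CPM in wild type, 481 ± 54.6 in Pax5-KO with Pax5, 296 ± 82.0 in Pax5-KO with Ebf1, 281 ± 45.3 in Ebf1-KO with Pax5, 268 ± 32.4 in Ebf1-KO with Ebf1, 112 ± 31.0 in Pax5-KO and 79.7 ± 5.09 in Ebf1-KO. The 3 groups from Pax5-KO with Ebf1 to Ebf1-KO with Ebf1 overlapped one another. Uhrf1 had a range of 5.90-fold, Orc1 of 4.86-fold and Pold1 of 4.07-fold, whereas Rfc5, Pola2 and E2f1 had 1.24-fold, 1.39-fold and 1.39-fold. E2f1, another activating E2F, stood between 33.0 and 63.6 CPM in all 14 libraries. Across the 7 group means of log2 CPM, the genes most like E2f2 by Pearson correlation were Ets1 (0.988), Trak1 (0.977), Sorcs2 (0.969), Bcl7a (0.964) and N4bp2 (0.961), over points that share their libraries with it. Ets1, a transcription factor gene of lymphocytes, had group means of 686 CPM in wild type against 188 without Ebf1 and 256 without Pax5, and of 444 and 590 CPM with the Pax5 vector in these genotypes.

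EBF1 binding was measured by chromatin immunoprecipitation in 230-238 cells, a pre-B line transformed with the Abelson virus, and not in the cultures above. The authors gave 1 list of 17230 peaks for the line. A peak centre lay within 2 kb of the start of 13 of the 38 genes (34.2%), against 19.7% of all genes in the count table and 31.2% of the genes tested for expression. All 13 lay within 1 kb, and 11 within 500 bases. They were Orc1, Cdt1, Mcm6 and Mcm7 in licensing, Pold1 and Pole among the polymerases, Rfc5 and Dscc1 in clamp loading, Chaf1b and Uhrf1 in chromatin, and E2f1, Ccne1 and Ccne2 in G1/S control. No helicase activation gene had one.

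The authors' values ranked these peaks widely. The strongest lay 194 bases inside Cdt1, at chr8:122568049-122568369 on mm10, with a normalized tag count of 206.4 and rank 205 by the authors' score. Cdt1, the licensing factor, was called in none of the 10 comparisons. At Pold1 a peak 830 bases downstream of the start, within the gene, had a normalized tag count of 93.2 and rank 988. The peak 202 bases upstream of the Orc1 start, at chr4:108579092-108579412, overlaps most of the Orc1 stretch printed above; its tag count was 16.1 and its rank 12343. At Uhrf1 a peak lay 327 bases upstream, with a tag count of 16.1 and rank 11572, and the remaining 9 had tag counts from 13.3 to 54.4. E2f2, the gene with the largest differences in RNA, had its nearest peak centre 5206 bases downstream of the start, inside the gene, with a tag count of 46.1. Of the 13 genes with a peak near the start 5 were called in at least 1 comparison of RNA, and of the other 25 genes 8. Over all genes tested, 30.1% of those with such a peak and 25.6% of those without were called in at least 1 comparison. When peaks with a score below the list's median were left out, 6 of the 38 genes had one (15.8%), against 13.7% of the genes tested.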

How the data were processed

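RNA was sequenced in 14 libraries, 7 groups of 2. Their file holds whole-number exon read counts per gene, made by the authors with HOMER and not normalized, per the file headers. The submitters' processing notes list STAR 2.6.0b-1, HOMER 4.8 and DESeq2 among other tools, on mm10; strand use in counting is not given in the sources used here. The EBF1 peak list, called an IDR list in the labels, holds 3 values per peak that were deposited by the authors: a normalized tag count (a coverage signal), the findPeaks score used here to rank peaks, and the fold over the control (a ratio).

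Columns were matched to samples by name and none was left over (0). The column of Pax5-KO with the empty vector that lacks a number was read as replicate 1, because its partner has number 2. Counts were analysed in R 4.3.3 with edgeR 4.0.16: filterByExpr, TMM scaling, 1 quasi-likelihood fit over 14 libraries, and Benjamini-Hochberg adjustment over 14550 genes. CPM uses TMM-scaled library sizes. The code was tested on simulated counts. The libraries of a group differed by more than sampling noise in 7 of 7 groups. Alternatives were RLE or library-total scaling, no filter, DESeq2 1.42.0, a fit of the compared groups alone, the replicate number as a block, and each library left out.

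The genes and the lists of other genes and markers were chosen with earlier results of these data known. Genes named are those called in any comparison, the extremes of each role and comparison, those with an EBF1 peak within 2 kb, other listed genes called in the 6 comparisons against wild type or an empty vector, Myc, Mki67, Ebf1 and Pax5, and the 5 genes most like the most variable one. Promoter sequences are RefSeq's on GRCm38.p6. Chromatin contact profiles were not used here.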

Additional observations from a re-analysis of the deposited data

Results flagged for a closer look

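The Pax5 vector effect differed between Ebf1-KO and Pax5-KO cells for 2 of the 38 genes by the test of that difference. For Orc1 the difference was -2.06 on the log2 scale, called in 10 of 14 alternatives, with edgeR or DESeq2 adjusted p-values from 2.03e-06 to 0.0799. It was lost without Ebf1-KO replicate 1, without Ebf1-KO with Pax5 replicate 1, without Pax5-KO replicate 2 and without Pax5-KO with Pax5 replicate 2. For Pcna the difference was -1.13, called in 5 of 14 alternatives, with adjusted p-values from 0.00322 to 0.253. Groups of 2 libraries are too small for a check of single outlying samples.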

How the results depend on the processing

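With 2 libraries per group an exact permutation test of a single gene cannot go below p = 0.333, so the calls rest on the spread that edgeR shares across genes. No called gene changed sign under any alternative. E2f2 was called under every alternative in 5 of its 6 comparisons, all but the Ebf1 vector in Pax5-KO; Pold1 in Ebf1-KO against wild type and Uhrf1 with the Ebf1 vector in Ebf1-KO were also called throughout. The lowest count of the 38 genes was 84 reads, for Dscc1; how far depth limited the calls was not tested. The causes of the differences below were not tested.

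Other settings moved the number of the 38 genes called as follows. Pax5-KO against wild type gave 1 under library totals, 1 without the filter and 4 with DESeq2. The Pax5 vector in Ebf1-KO gave 1 under library totals, 1 when the compared groups were fitted alone and 4 with DESeq2. The Ebf1 vector in Pax5-KO gave 5 without the filter, 6 with DESeq2 and 0 when fitted alone; over all genes DESeq2 called 729 higher and 864 lower against 255 and 269, and the fit alone 53 and 14. The Pax5 vector in Pax5-KO gave 4 with DESeq2. The 2 vectors compared in Pax5-KO gave 0 when fitted alone. The difference of the Ebf1 effects gave 1 without the filter, and that of the Pax5 effects 1 under library totals and 6 with DESeq2.

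The median log2 fold change of the 38 genes under library totals was 0.17 for the Ebf1 vector in Ebf1-KO, -0.047 for the Ebf1 vector in Pax5-KO and 0.16 for the Pax5 vector in Pax5-KO; the last was 0.23 under RLE scaling, 0.23 without the filter and 0.23 with DESeq2. Library totals moved the median of all genes tested from -0.04 to -0.18 for the Ebf1 vector in Pax5-KO and from 0.00 to 0.10 for the difference of the Pax5 effects. With only the peaks at or above the median score 6 of the 38 genes had an EBF1 peak within 2 kb.

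The replicate number as a block gave 4 calls (1 higher, 3 lower) for the Pax5 vector in Ebf1-KO, where all genes went from 458 higher and 136 lower to 652 and 264. It gave 5 (4 higher, 1 lower) for the Ebf1 vector in Pax5-KO, with all genes from 255 and 269 to 382 and 439, and 3 higher for the Pax5 vector in Pax5-KO, with all genes from 238 and 349 to 320 and 468. For the 2 vectors compared in Ebf1-KO it gave 18, all higher with Ebf1, with all genes from 689 and 795 to 945 and 981. The numbers were not taken to pair the samples, since the deviations of same-numbered libraries correlated at -0.0586 to 0.0126 for 6 pairs of groups with wild type and at 0.0764 to 0.236 for the other 15, of which 13 were over 0.1.

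With each library left out in turn, the calls and the median ranged from 2 to 4 and -0.25 to -0.040 for Ebf1-KO against wild type, 1 to 1 and -0.12 to 0.15 for Pax5-KO against wild type, 2 to 2 and 0.21 to 0.40 for the Ebf1 vector in Ebf1-KO, and 1 to 1 and -0.69 to -0.28 for the Pax5 vector in Ebf1-KO. They ranged from 0 to 6 and -0.020 to 0.38 for the Ebf1 vector in Pax5-KO, and 1 to 1 and 0.11 to 0.35 for the Pax5 vector in Pax5-KO. For the 2 vectors compared they ranged from 4 to 8 and 0.51 to 1.03 in Ebf1-KO, and from 0 to 5 and -0.41 to 0.057 in Pax5-KO. For the difference of the Ebf1 effects they ranged from 0 to 2 and 0.023 to 0.43, and for that of the Pax5 effects from 0 to 2 and -0.96 to -0.52.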
